A study of Mus musculus with 6 samples.

Results

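The 10 genes described here, Atp2a2, Pln, Sln, Ryr2, Casq1, Casq2, Hrc, Srl, Slc8a1 and Jph2, encode the core of calcium cycling by the sarcoplasmic reticulum (SR) of heart muscle. They were taken by symbol from 27998 genes in the count tables, and all 10 had UMIs in every library. The libraries hold cardiomyocytes (CMs) from the left ventricle of C57BL/6J mice at embryonic day 16.5 (E16.5) and at postnatal days 1 (P1) and 5 (P5). Heart cells were fixed, stained for MYH1 and sorted by DNA content into diploid (2n) and tetraploid (4n) cells. This gave 6 conditions with 1 droplet-based scRNA-seq library each, named by age and sort (E16.5-2n to P5-4n), and cells of 3 sorts, each of a separate litter, were pooled in each. The 2n and 4n cells of an age came from the same litters, and litters differed between ages. All mice were untreated wild types. A tetraploid CM by this sort may have 1 or 2 nuclei or be in G2 or M phase, and a pair of diploid cells that passed as 1 would have the same DNA content. By microscopy of sorted cells, the paper reports that clumps were scarce.

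In each beat, calcium that enters through the surface membrane opens the release channel RYR2, calcium leaves the SR and the myofilaments contract. The pump SERCA2, encoded by Atp2a2, then returns calcium to the SR, where calsequestrin binds it, and the exchanger NCX1 carries the remainder out of the cell. Phospholamban and sarcolipin are small membrane peptides that slow the pump, and junctophilin holds the surface membrane and the SR close together. In rodents the SR of the fetal heart is sparse and its store grows around birth.

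By gene ID in the GENCODE M21 annotation of GRCm38, Atp2a2 lies on chromosome 5 (122453513 to 122502225, minus strand), Pln on chromosome 10 (53337667 to 53345987, plus strand) and Sln on chromosome 9 (53850164 to 53854560, plus strand). Ryr2 spans 554 kb of chromosome 13 (11553102 to 12106945, minus strand), and Slc8a1 spans 365 kb of chromosome 17 (81373105 to 81738377, minus strand). Casq1 is on chromosome 1 (172209894 to 172219868, minus strand) and its paralog Casq2 on chromosome 3 (102086415 to 102146514, plus strand). Hrc is on chromosome 7 (45335290 to 45338974, plus strand), Srl on chromosome 16 (4480216 to 4541816, minus strand) and Jph2 on chromosome 2 (163336242 to 163397993, minus strand). No annotated gene on the same strand covers the 3′ end of any of the 10. Elsewhere along their length, Atp2a2, Ryr2 and Casq2 each overlap 2 annotated genes on the same strand. The methods state that UMIs were counted by strand, from exons and introns.

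RefSeq promoter windows on GRCm38.p6 were found for 7 of the 10 genes, and 4 are shown because their levels fall into separate patterns below. Ryr2 and Hrc had higher levels after birth, and the calsequestrin paralogs Casq1 and Casq2 differed from each other. Each sequence is the 250 bases upstream of the annotated start on the gene's own strand, with capitals at matches to the E-box (CANNTG, either strand) and to the MEF2 consensus.
Ryr2, chr13:12106946-12107195, minus strand: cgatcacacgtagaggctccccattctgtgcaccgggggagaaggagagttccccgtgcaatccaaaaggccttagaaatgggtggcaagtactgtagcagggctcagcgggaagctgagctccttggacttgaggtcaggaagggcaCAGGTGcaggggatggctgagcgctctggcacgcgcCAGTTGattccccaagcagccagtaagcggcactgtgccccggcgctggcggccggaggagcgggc
Hrc, chr7:45335019-45335268, plus strand: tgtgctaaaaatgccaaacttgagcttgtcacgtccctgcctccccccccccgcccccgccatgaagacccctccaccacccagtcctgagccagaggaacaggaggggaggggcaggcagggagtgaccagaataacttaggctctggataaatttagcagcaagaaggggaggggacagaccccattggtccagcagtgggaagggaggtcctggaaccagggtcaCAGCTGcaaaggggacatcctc
Casq1, chr1:172219896-172220145, minus strand: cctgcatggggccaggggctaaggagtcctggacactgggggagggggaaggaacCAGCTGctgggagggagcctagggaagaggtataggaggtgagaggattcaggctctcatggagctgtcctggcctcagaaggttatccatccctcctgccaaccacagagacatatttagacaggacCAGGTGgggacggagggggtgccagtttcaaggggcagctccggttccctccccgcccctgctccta
Casq2, chr3:102086165-102086414, plus strand: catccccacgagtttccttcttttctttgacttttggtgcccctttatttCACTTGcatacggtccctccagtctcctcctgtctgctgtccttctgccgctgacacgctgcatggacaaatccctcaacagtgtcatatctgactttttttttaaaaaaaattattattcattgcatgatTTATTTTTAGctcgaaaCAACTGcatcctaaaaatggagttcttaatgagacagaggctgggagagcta

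An E-box was present in all 4 windows and in 66.2% of 32851 promoter windows of this length. The MEF2 consensus matched only Casq2 among the 7 genes found, 69 bases before the start, and 2.92% of all windows hold it. The GC box (GGGCGG, either strand) matched Hrc and Casq1 of the 4 shown, with 32.7% of all windows. The TATA box (TATAAA, either strand), the MCAT element with its letters CATTCC on either strand, and the CArG box matched none of the 4, against 12.4%, 12.6% and 1.47% of all windows. Base composition differed within the calsequestrin pair, with 61.6% G and C upstream of Casq1 and 41.6% upstream of Casq2, beside a median of 52.4%. A match describes the letters in this window.

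Each captured molecule carries a unique molecular identifier (UMI), and the deposited counts give UMIs by gene and cell. CMs were cells with at least 1 UMI of each of Tnni3, Tnnt2, Tnnc1 and Actc1, 30733 of 31156 cells, with 3654 to 7340 CMs and 13070343 to 19665830 UMIs per library. The median depth was 1831 to 4658 UMIs per CM. Levels are UMIs of a gene per 1000000 UMIs of all CMs of a library (CPM), and differences are log2 ratios of CPM, with 95% intervals in brackets that cover counting error only. Each condition had 1 library, so single ratios between 2 libraries carry no p-value. Litter and age cannot be told apart, and ages were not tested, since the 2 libraries of an age share their litters. The 4n and 2n libraries were tested over the 3 ages as pairs. CMs with 3 or more UMIs of non-myocyte markers, after thinning to 1000 UMIs, made up 1.16% to 16.7% of a library and were most frequent in E16.5-4n (13.3%) and P1-4n (16.7%). CMs with 3 or more UMIs of cycling markers such as Mki67 and Top2a ranged from 1.54% (P1-2n) to 46.6% (E16.5-4n). Cell barcodes present in 2 or more libraries numbered 499 and covered 3.22% of cells.

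Together the 10 genes held 5640, 9593 and 8050 CPM at E16.5, P1 and P5 in the 2n libraries, and 4501, 8515 and 6891 CPM in the 4n libraries. This order, the 3 ages within 2n and then within 4n, is kept below. The P1 libraries were thus the highest in either sort. Pln alone gave 48.8% to 61.0% of these UMIs and Atp2a2 16.8% to 32.0%. The share of Atp2a2 was lowest at E16.5 and highest at P5, and that of Pln was lowest at P5. UMIs were counted over exons and introns and capture can differ between genes, so these shares describe UMIs.

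**Figure D1:**
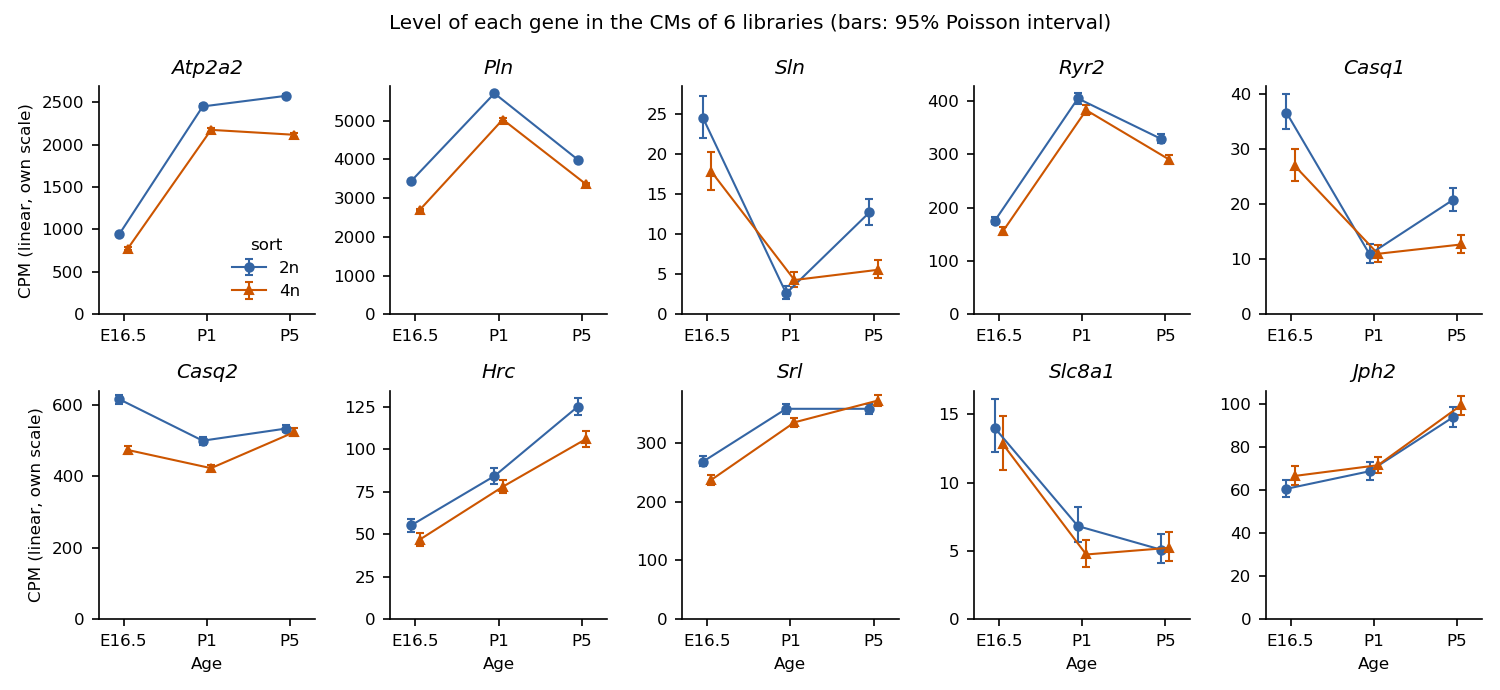
CPM (linear axis from 0, own scale for each gene) of the 10 genes against age for 2n (circles) and 4n (triangles) libraries, with 95% Poisson intervals. Within each sort, Atp2a2, Pln, Ryr2, Hrc, Srl and Jph2 lie higher at P1 and P5 than at E16.5, whereas Sln, Casq1 and Slc8a1 lie lower. For Jph2 the difference at P1 in 4n is within counting error.

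At P1 the genes of pump and release channel were higher than at E16.5 and 3 genes of low level were lower, in both sorts. Atp2a2 and Ryr2 were at least 2-fold higher at P1, that is 2 of 10 genes, against 1.98% of 9391 genes with 100 or more UMIs in the 2n libraries and 2.88% of 9958 genes in the 4n libraries. Sln, Casq1 and Slc8a1 were at least 2-fold lower, 3 of 10, against 12.1% of genes in 2n and 11.6% in 4n. The median log2 ratio of all genes was -0.34 in 2n and -0.30 in 4n. Relative to that median, 3 of 10 were 2-fold higher in 2n (Atp2a2, Pln and Ryr2), 4 in 4n (also Hrc), and Sln and Casq1 were 2-fold lower in 2n, as were Sln and Slc8a1 in 4n. On this relative measure 3.87% of all genes were higher in 2n and 5.06% in 4n, and 6.21% and 6.77% were lower. The 2n and 4n comparisons share no library, but their cells came from the same litters.

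From P1 to P5 few of the 10 genes were 2-fold apart. By less than 2-fold, Pln and Ryr2 were lower and Hrc, Jph2 and Casq2 higher in both sorts, with intervals away from 0. In 2n, Sln was at least 2-fold higher and no other gene was, against 3.02% of 9230 genes, and none was 2-fold lower, against 1.98%. In 4n none of the 10 passed in either direction, against 2.40% of 9764 genes higher and 5.85% lower. Medians of all genes were -0.09 and -0.16, and relative to them Casq1 joined Sln in 2n, 2 of 10, while 0 passed in 4n. On this relative measure 3.52% of all genes were higher in 2n and 3.13% in 4n, and 1.48% and 4.07% were lower. These comparisons use the same P1 libraries as those above, so that a high or low P1 value enters both.

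Between E16.5 and P5, Atp2a2 and Hrc were at least 2-fold higher in both sorts, 2 of 10 each, against 3.03% of 9505 genes in 2n and 2.48% of 9600 in 4n. Slc8a1 was at least 2-fold lower in 2n, 1 of 10 against 16.8% of genes. Sln, Casq1 and Slc8a1 were so in 4n, 3 of 10 against 21.0%. Here the medians of all genes were -0.45 and -0.51. Relative to them 4 genes were 2-fold higher in 2n (Atp2a2, Ryr2, Hrc and Jph2), 5 in 4n (also Srl), and 1 was lower in each (Slc8a1 in 2n and Sln in 4n). On this relative measure 7.09% of all genes were higher in 2n and 7.15% in 4n, and 5.59% and 6.99% were lower.

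Between 4n and 2n CMs of the same age no gene was 2-fold apart at E16.5, against 4.66% of genes, or at P1, against 5.23%. At P5 Sln was 2-fold lower in 4n, 1 of 10, against 38 of 9349 genes lower and 2.28% in either direction. At E16.5, 447 genes were 2-fold higher in 4n and 2 lower, and at P1 505 were higher and 0 lower. Most of the 10 were slightly lower in 4n, 9 at E16.5 and 7 each at P1 and P5, with intervals wholly below 0 for 8, 7 and 6 genes. Of all genes, 45.4%, 41.4% and 46.4% were lower in 4n. Intervals wholly below 0 were found for 18.1%, 13.1% and 12.9% of all genes, and intervals are narrower for genes with more UMIs. The share of cycling-marker CMs differed in the same comparisons, 12.3% against 46.6% at E16.5, 1.54% against 6.32% at P1 and 3.98% against 29.5% at P5. Without these CMs the intervals of 6, 6 and 5 genes lay wholly below 0, against 14.1%, 13.1% and 14.4% of all genes.

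Over the 3 ages together, the pump gene Atp2a2 and its inhibitor Pln were lower in 4n than in 2n CMs. With age as a block, edgeR's quasi-likelihood test on UMI sums gave a log2 ratio of -0.30 for Atp2a2 (Benjamini-Hochberg adjusted p = 0.0308) and -0.31 for Pln (adjusted p = 0.0286). Both genes were lower in 4n in 3 of 3 pairs. These 2 of 10 genes passed an adjusted p of 0.05, against 0.131% of 11412 genes called lower. The other 8 did not pass, with log2 ratios from -0.49 (Sln) to 0.04 (Jph2). Summed, the genes of the CM filter (Tnni3, Tnnt2, Tnnc1 and Actc1) were lower in 4n too. They had 25355 against 31795 CPM at E16.5, 28901 against 31512 CPM at P1 and 30059 against 31849 CPM at P5. In the same edgeR test without cycling-marker CMs the ratios were -0.18 for Atp2a2 (adjusted p = 0.223) and -0.22 for Pln (adjusted p = 0.179). No gene of 11120 was then called, while 1826 had an unadjusted p under 0.05. Neither gene was called by edgeR without the E16.5 pair (adjusted p = 0.268 for Atp2a2 and 0.205 for Pln), and without the P1 pair Atp2a2 was not (adjusted p = 0.0567). Without these pairs 0.548% and 1.88% of all genes were called.

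**Figure D2:**
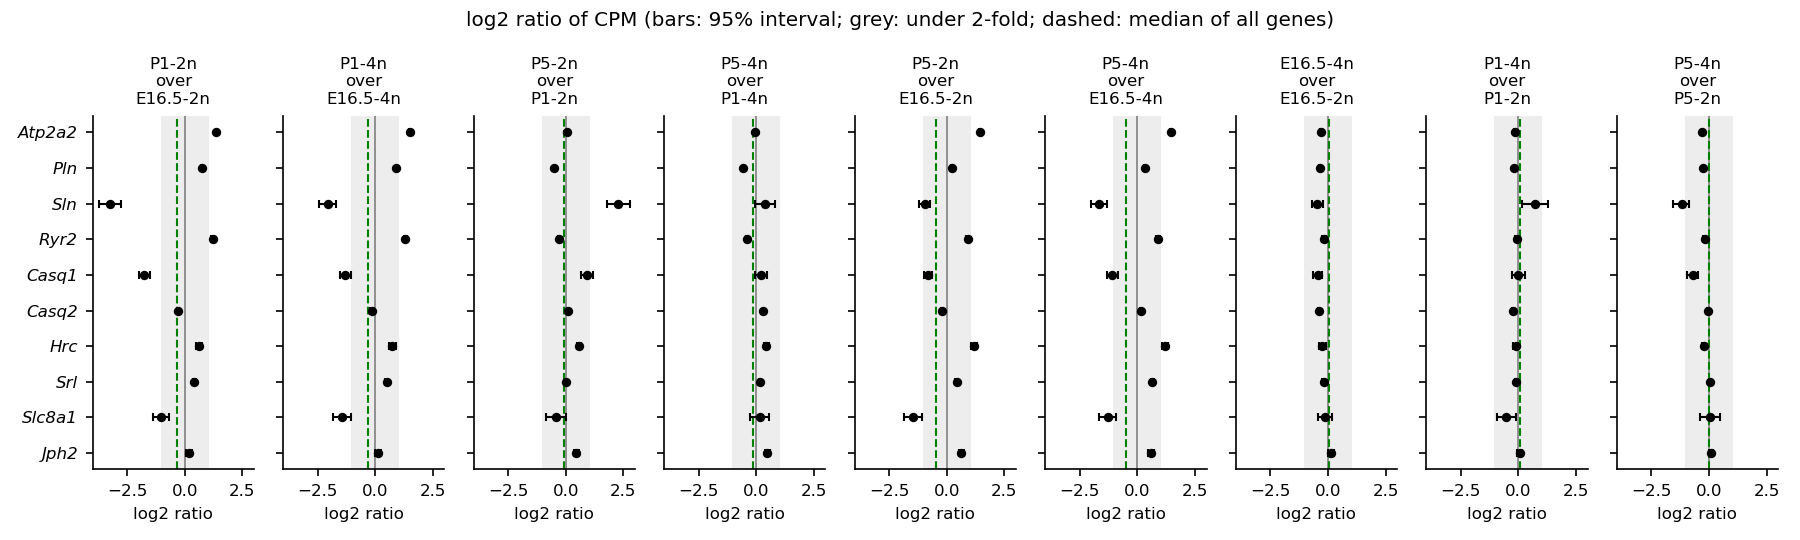
log2 ratio of CPM (x axis) of each gene in 9 comparisons of 2 libraries, with 95% intervals, the grey band marking less than 2-fold and the dashed line the median of all genes. Atp2a2 and Ryr2 lie right of the band at P1 over E16.5, and Sln has the widest range, from -3.23 to 2.28.

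Atp2a2, encoding the SR calcium pump SERCA2, had 947, 2449 and 2574 CPM in the 2n libraries of E16.5, P1 and P5, and 774, 2173 and 2115 CPM in the 4n libraries. All 4 postnatal libraries were above both E16.5 libraries, and within each age 2n was above 4n. From E16.5 to P1 it was 2.58-fold higher in 2n (log2 1.37, 1.34 to 1.40) and 2.81-fold higher in 4n (log2 1.49, 1.46 to 1.52), above 98.9% and 98.8% of all genes tested. From P1 to P5 the log2 ratio was 0.07 (0.05 to 0.09) in 2n and -0.04 (-0.06 to -0.02) in 4n. The difference in 4n was above 0 under 3 alternatives, at 0.12 with median-of-ratios scaling, 0.01 without the 50 most abundant genes in the total and 0.09 without cycling-marker CMs. In 4n over 2n, Atp2a2 had log2 ratios of -0.29 (-0.33 to -0.25) at E16.5, -0.17 (-0.19 to -0.15) at P1 and -0.28 (-0.30 to -0.26) at P5. Without cycling-marker CMs these were -0.13, -0.14 and -0.14, and without CMs with non-myocyte markers -0.27, -0.15 and -0.29.

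Pln encodes phospholamban, which holds the pump back until it is phosphorylated. Its levels were 3442, 5708 and 3998 CPM in 2n and 2690, 5032 and 3360 CPM in 4n. Unlike Atp2a2, it peaked at P1 in both sorts, at 1.66-fold (log2 0.73, 0.71 to 0.75) and 1.87-fold (log2 0.90, 0.89 to 0.92) its E16.5 level. By P5 it was lower again than at P1, with log2 ratios in 2n of -0.51 (-0.53 to -0.50) and in 4n of -0.58 (-0.60 to -0.57), and the P5-4n library lay below E16.5-2n.

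The ratio of Pln to Atp2a2 UMIs does not depend on the scaling, and it was lower at each later age. It was 3.63 (3.57 to 3.70) in E16.5-2n and 3.47 (3.40 to 3.55) in E16.5-4n. At P1 the 2n library had 2.33 (2.30 to 2.36) and the 4n library 2.32 (2.29 to 2.34), followed at P5 by 1.55 (1.54 to 1.57) for 2n and 1.59 (1.57 to 1.61) for 4n. From E16.5 to P5 the ratio was thus 2.34-fold lower in 2n and 2.19-fold lower in 4n. Between sorts of the same age it differed by at most 0.06 on the log2 scale. The order was the same in both sorts, whose cells came from the same litters.

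Sln encodes sarcolipin, the second peptide that inhibits SERCA pumps, known in the heart mainly from atrial CMs. The 2n libraries had 358, 43 and 227 Sln UMIs (24.5, 2.61 and 12.7 CPM), and the 4n libraries 232, 84 and 102 UMIs (17.8, 4.27 and 5.54 CPM). Both E16.5 libraries were above all postnatal ones, and P5-2n was above the other 3 postnatal libraries. P1 over E16.5 gave log2 -3.23 (-3.72 to -2.77) in 2n, 9.36-fold lower, and -2.06 (-2.43 to -1.69) in 4n, 4.16-fold lower. P5 over P1 gave 2.28 (1.80 to 2.78) in 2n and 0.38 (-0.05 to 0.81) in 4n. Even at its highest Sln was a trace beside Pln, at 7.11 UMIs (6.39 to 7.89) per 1000 Pln UMIs in E16.5-2n and 0.458 (0.332 to 0.617) in P1-2n.

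Sln sat in few cells. After thinning each CM to 1000 UMIs, 0.921% of CMs (0.687% to 1.21%) in E16.5-2n and 0.433% (0.261% to 0.675%) in P5-2n had a Sln UMI, where an even level would give 2.57% and 1.85%. In P5-2n, 10 CMs had 3 or more Sln UMIs and held 189 of its UMIs. In these 10 CMs the atrial light chain Myl7 stood at 25157 CPM and Myl4 at 11921 CPM, against 58.6 and 52.4 CPM in the other CMs, and Pln was lower (log2 -1.27, -1.65 to -0.91). The rest of the atrial list was mixed. Stard10 (107 against 9.57 CPM) and Dkk3 (215 against 1.46 CPM) were higher on few UMIs. Nppa was lower (403 against 974 CPM) and Bmp10 had 0 UMIs in these CMs. The 4 such CMs of P5-4n, with 73 of its Sln UMIs, likewise had Myl7 at 23591 CPM against 13.5 CPM, and Nppa at 76.3 CPM (1 UMI) against 642 CPM. The left ventricle was dissected, and no label or gate sets atrial cells apart.

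CMs with 10 or more Myl7 UMIs after thinning, a limit chosen after these values had been seen, numbered 39, 8 and 23 in the 2n and 28, 6 and 5 in the 4n libraries, at most 0.704% of CMs. They held 44.1%, 37.2% and 89.9% of the Sln UMIs in 2n, and 53.9%, 39.3% and 71.6% in 4n. Without them Sln in 2n was at 13.7 CPM (11.9 to 15.8), 1.64 CPM (1.08 to 2.39) and 1.29 CPM (0.816 to 1.93), and in 4n at 8.22 CPM (6.74 to 9.94), 2.60 CPM (1.93 to 3.41) and 1.58 CPM (1.06 to 2.27). At this limit the E16.5 libraries were still the highest. Sln was no longer 2-fold apart at P5-2n over P1-2n (log2 -0.35) or P5-4n over P5-2n (0.29). At P5 over E16.5 the ratio in 2n went from -0.95 to -3.42, past 2-fold, and that in 4n from -1.68 to -2.38. Myl7 in the remaining CMs was 639 and 554 CPM at E16.5 and 12.8 to 109 CPM after birth, so that at E16.5 this limit does not separate Myl7 cells as cleanly. With a limit of 3 Myl7 UMIs, E16.5-4n no longer stood above P1-4n in Sln. It had 2.02 CPM (1.31 to 2.98), against 2.40 CPM (1.76 to 3.19) in P1-4n, while E16.5-2n had 6.57 CPM (5.28 to 8.08). The CMs left out of E16.5-4n by this limit, 4.92%, held 89.2% of its Sln UMIs.

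**Figure D3:**
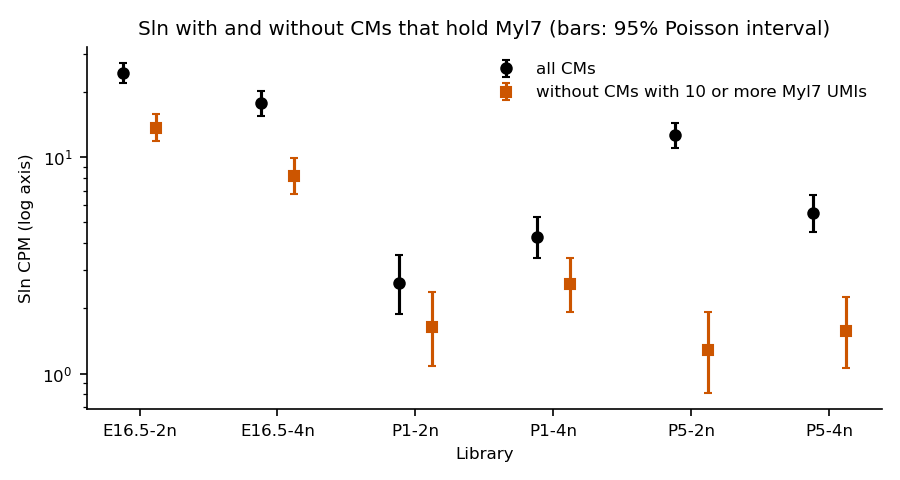
Sln CPM (log axis) in each library over all CMs (black circles) and without CMs that hold 10 or more Myl7 UMIs after thinning to 1000 UMIs (orange squares), with 95% Poisson intervals. The gap between P5-2n (12.7 CPM) and the other postnatal libraries is absent in the second series.

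Ryr2 encodes the channel through which the SR of the heart releases calcium. It stood at 175, 405 and 329 CPM in 2n and 156, 383 and 290 CPM in 4n. All postnatal values exceeded both E16.5 values, and P1 exceeded P5 in both sorts. P1 over E16.5 was 2.31-fold in 2n (log2 1.21, 1.14 to 1.27) and 2.46-fold in 4n (log2 1.30, 1.23 to 1.37), higher than 98.6% and 98.3% of all genes. P5 over P1 was -0.30 (-0.35 to -0.25) and -0.40 (-0.45 to -0.35). The ratio of Ryr2 to Atp2a2 UMIs was 0.185 (0.177 to 0.193), 0.165 (0.161 to 0.17) and 0.128 (0.124 to 0.131) in 2n, and 0.201, 0.176 and 0.137 in 4n. Relative to the pump the channel was thus lower by -0.16 and -0.19 on the log2 scale at P1, and by -0.53 and -0.55 at P5, in 2n and 4n against E16.5.

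Calsequestrins are the main calcium buffers inside the SR, Casq2 in heart muscle and Casq1 in fast skeletal muscle. Casq2 had 616, 500 and 534 CPM in 2n and 474, 423 and 524 CPM in 4n, the narrowest relative range of the 10. Its log2 ratio at P1 over E16.5 was -0.30 (-0.34 to -0.26) for 2n and -0.16 (-0.21 to -0.12) for 4n, and these turned to 0.03 and 0.14 with median-of-ratios scaling. At P5 over E16.5 the sorts were of opposite sign, -0.21 (-0.25 to -0.17) in 2n and 0.15 (0.10 to 0.19) in 4n, but with median-of-ratios scaling the 2n value was 0.24. Casq2 was lower in 4n at E16.5 (log2 -0.38, -0.43 to -0.33) and P1 (-0.24, -0.29 to -0.20), whereas the interval at P5 held 0 (-0.03, -0.07 to 0.02).

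Casq1 was present at a low level throughout, with 36.7 CPM (33.7 to 40.0), 10.9 CPM (9.40 to 12.7) and 20.8 CPM (18.8 to 23.0) in 2n, and 27.0 CPM (24.3 to 30.0), 11.0 CPM (9.57 to 12.6) and 12.7 CPM (11.1 to 14.5) in 4n. Both E16.5 libraries were above all 4 later ones, and P5-2n was above the other postnatal libraries. P1 was below E16.5 by log2 -1.75 in 2n, 3.35-fold lower, and -1.30 (-1.55 to -1.05) in 4n, 2.46-fold lower. Per 1000 Casq2 UMIs there were 59.6 Casq1 UMIs (54.5 to 65.1) in E16.5-2n and 57.0 (51.1 to 63.5) in E16.5-4n, 21.9 and 26.0 at P1, and 39.0 (35.1 to 43.3) in P5-2n against 24.3 (21.2 to 27.6) in P5-4n. Skeletal muscle markers (Mylpf, Tnnc2, Tnni2, Tnnt3, Actn3, Myh3, Myh8) summed to 25.9 and 24.7 CPM at E16.5, 11.7 and 9.41 CPM at P1, and 7.48 and 6.09 CPM at P5, and their part in the Casq1 level was not tested. Casq1 had a UMI in 0.99% to 3.16% of thinned CMs, beside 1.07% to 3.48% for an even level. CMs with 3 or more Myl7 UMIs had more Casq1 than the others, by log2 1.06 (0.66 to 1.43) in E16.5-2n, 4.29 (3.30 to 5.13) in P1-2n and 2.40 (1.26 to 3.34) in P5-2n. In 4n the ratios were 0.61 (0.00 to 1.17), 3.57 (2.49 to 4.48) and 4.39 (2.76 to 5.64). After birth these CMs held only 5 to 12 Casq1 UMIs, beside 162 to 364 in the other CMs.

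Hrc encodes a histidine-rich protein of the SR lumen that binds calcium. Its levels of 55.2, 84.2 and 125 CPM in 2n and 46.7, 77.9 and 106 CPM in 4n were higher at each later age in both sorts. The log2 ratios were 0.61 (0.48 to 0.73) and 0.74 (0.60 to 0.88) for P1 over E16.5, and 0.57 (0.47 to 0.66) and 0.44 (0.35 to 0.54) for P5 over P1, in 2n and 4n. Over the whole interval Hrc was 2.26-fold higher in 2n and 2.27-fold higher in 4n. Hrc UMIs per 1000 Casq2 UMIs went from 89.7 (83.4 to 96.4) in E16.5-2n to 168 (159 to 178) in P1-2n and 234 (223 to 245) in P5-2n, and from 98.6 to 184 and 202 in 4n.

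Srl encodes sarcalumenin, another calcium-binding protein of the SR lumen. It had 268, 358 and 358 CPM in 2n and 237, 335 and 372 CPM in 4n. The step fell between E16.5 and P1, at log2 0.42 (0.36 to 0.48) in 2n and 0.50 (0.44 to 0.56) in 4n. From P1 to P5 it was 0.00 (-0.05 to 0.05) in 2n and 0.15 (0.10 to 0.20) in 4n.

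Slc8a1 encodes the sodium-calcium exchanger NCX1 of the surface membrane. It was among the lowest of the 10, with 205, 112 and 91 UMIs (14.0, 6.81 and 5.08 CPM) in 2n and 167, 93 and 96 UMIs (12.8, 4.73 and 5.22 CPM) in 4n. Both E16.5 libraries were above all postnatal ones. Among these P1-2n was the highest, with log2 ratios whose intervals exclude 0 for P1-4n over P1-2n (-0.53, -0.94 to -0.12) and P5-2n over P1-2n (-0.42, -0.84 to -0.01). The interval for P5-2n over P1-2n held 0 without cycling-marker CMs (-0.40, -0.82 to 0.02). P1 over E16.5 gave log2 -1.04 (-1.39 to -0.70) for 2n and -1.43 (-1.82 to -1.06) for 4n, and P5 over E16.5 gave -1.47 (-1.84 to -1.10) and -1.29 (-1.67 to -0.92). The 2n value at P1 was inside 2-fold with other scalings, at -0.71 with median of ratios and -0.81 without the 50 most abundant genes, and at -0.95 without the 5% of CMs with the most UMIs. Per 1000 Atp2a2 UMIs there were 14.8 Slc8a1 UMIs (12.8 to 17.0) in E16.5-2n and 16.5 (14.1 to 19.2) in E16.5-4n, but only 1.97 to 2.78 in the 4 postnatal libraries. Relative to the pump the exchanger was thus 5.32-fold lower at P1 in 2n and 7.58-fold lower in 4n.

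Jph2 encodes junctophilin 2, the tether of the dyad where surface membrane and SR meet. Its levels were 60.7, 68.9 and 94.0 CPM in 2n and 66.7, 71.7 and 99.7 CPM in 4n. The larger difference lay between P1 and P5, with P5 over P1 at log2 0.45 (0.34 to 0.56) in 2n and 0.47 (0.37 to 0.58) in 4n. P1 over E16.5 was 0.18 (0.05 to 0.31) in 2n and 0.10 (-0.02 to 0.23) in 4n. Of the 10 genes it alone was nominally higher in 4n at all 3 ages, but only by 0.14, 0.06 and 0.09 on the log2 scale, and none of these intervals lay wholly above 0.

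**Figure D4:**
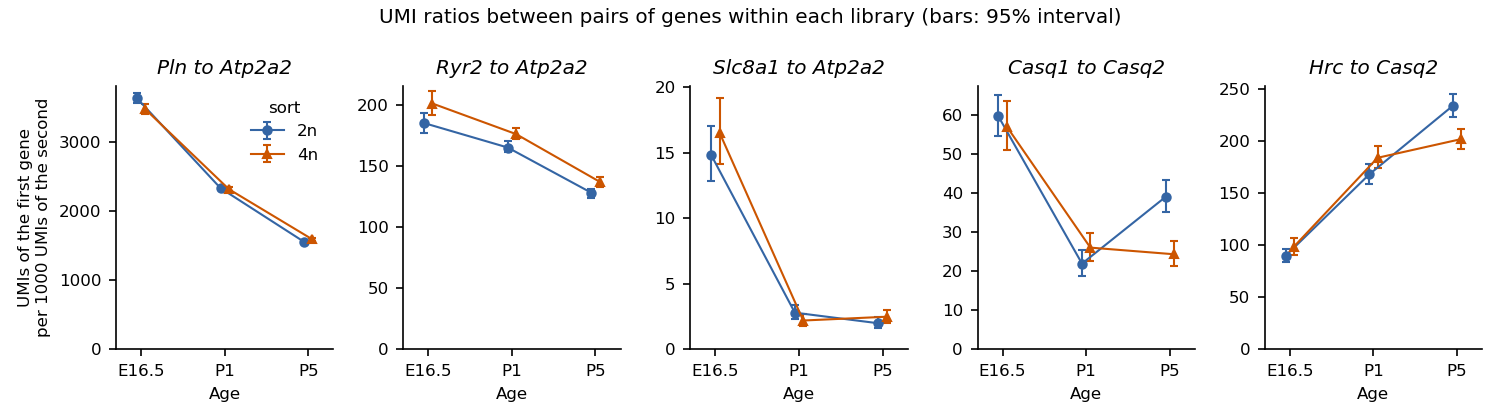
UMIs of the first gene per 1000 UMIs of the second in the same library (linear axis from 0) against age, for 2n (circles) and 4n (triangles), with 95% intervals. Pln to Atp2a2 is lower at each later age, from 3633 to 1553 in 2n, and Hrc to Casq2 is higher at each.

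Sln had the highest variance over mean of the 10 in each library although its level was low. After thinning to 1000 UMIs, 59.7% of E16.5-2n CMs had an Atp2a2 UMI and so did 90.2% of P1-2n CMs, where an even level gives 62.2% and 92.2%. Pln had a UMI in 90.4% to 99.2% of CMs, Ryr2 in 14.6% to 33.6% and Hrc in 4.49% to 11.7%. The variance over the mean of the UMIs per thinned CM was 0.968 to 1.09 for Ryr2, Hrc, Srl, Slc8a1 and Jph2 in all 6 libraries, close to the value of 1 for an even level. Where cells differ in a gene's level, this measure grows with the level, so that it does not rank genes of unlike level. For Casq2 it was 1.01 to 1.14, for Casq1 1.06 to 1.26, for Atp2a2 1.12 to 1.33, for Pln 1.35 to 1.42, and for Sln 1.77 to 7.57. In cells that failed the CM filter (24 to 129 per library, median 911 to 1439.5 UMIs), Atp2a2 had a UMI in 31.3% to 76.7% of cells and Pln in 38.8% to 85.3% without thinning, beside 76.5% to 98.9% and 97.8% to 99.8% of CMs. In P1-2n these cells held Atp2a2 at 2221 CPM and Pln at 4715 CPM, near the CM levels of 2449 and 5708 CPM. In the other libraries they held less, with Atp2a2 at 403 to 579 CPM and Pln at 441 to 1882 CPM. The CMs of those libraries had 774 to 2574 CPM of Atp2a2 and 2690 to 5032 CPM of Pln. No share from free RNA was measured.

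Within each library, CMs with cycling markers had less Atp2a2 and Pln than the other CMs. For Atp2a2 the levels were 737 against 978, 1549 against 2454 and 1747 against 2613 CPM in 2n, and 645 against 894, 1505 against 2230 and 1499 against 2376 CPM in 4n. The log2 ratios were -0.41 (-0.49 to -0.33), -0.66 (-0.80 to -0.53) and -0.58 (-0.66 to -0.50) in 2n and -0.47 (-0.53 to -0.41), -0.57 (-0.63 to -0.51) and -0.66 (-0.70 to -0.63) in 4n. For Pln they lay between -0.37 and -0.48, with every interval below 0. The 4 genes of the CM filter were lower in these CMs too. Tnnt2 ranged from -0.03 to -0.38, Tnni3 from -0.14 to -0.35, Tnnc1 from -0.12 to -0.30 and Actc1 from -0.14 to -0.39. Each lay closer to 0 than Atp2a2 in every library. Actc1 matched Pln at -0.37 in E16.5-2n and lay beyond it in P5-2n, at -0.39 against -0.37. The age difference of Atp2a2 was present in either class, since its levels in cycling-marker CMs after birth were above those in the other CMs of E16.5.

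Hrc was lower in cycling-marker CMs in the 4n libraries, with log2 ratios by age of -0.75 (-0.99 to -0.50), -0.85 (-1.22 to -0.50) and -0.77 (-0.93 to -0.61). In the 2n libraries it was at -0.29 (-0.62 to 0.03), -0.33 (-1.06 to 0.32) and -0.40 (-0.75 to -0.07). Jph2 differed in 1 library beyond counting error, by -0.38 (-0.71 to -0.07) in E16.5-2n, with ratios of -0.07 to 0.19 elsewhere. Sln had no common direction, lying at -3.38 in E16.5-2n and 2.20 in P5-2n, on 5 and 40 UMIs in cycling-marker CMs. In P5-4n it moved from -1.81 to -0.31 with 2 or more cycling UMIs as the limit. Cycling-marker CMs had median depths of 2306 to 4721.5 UMIs against 1958.5 to 4611.5 UMIs for the others, and their 4n sorts can hold pairs of cells, whose part was not tested.

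**Figure D5:**
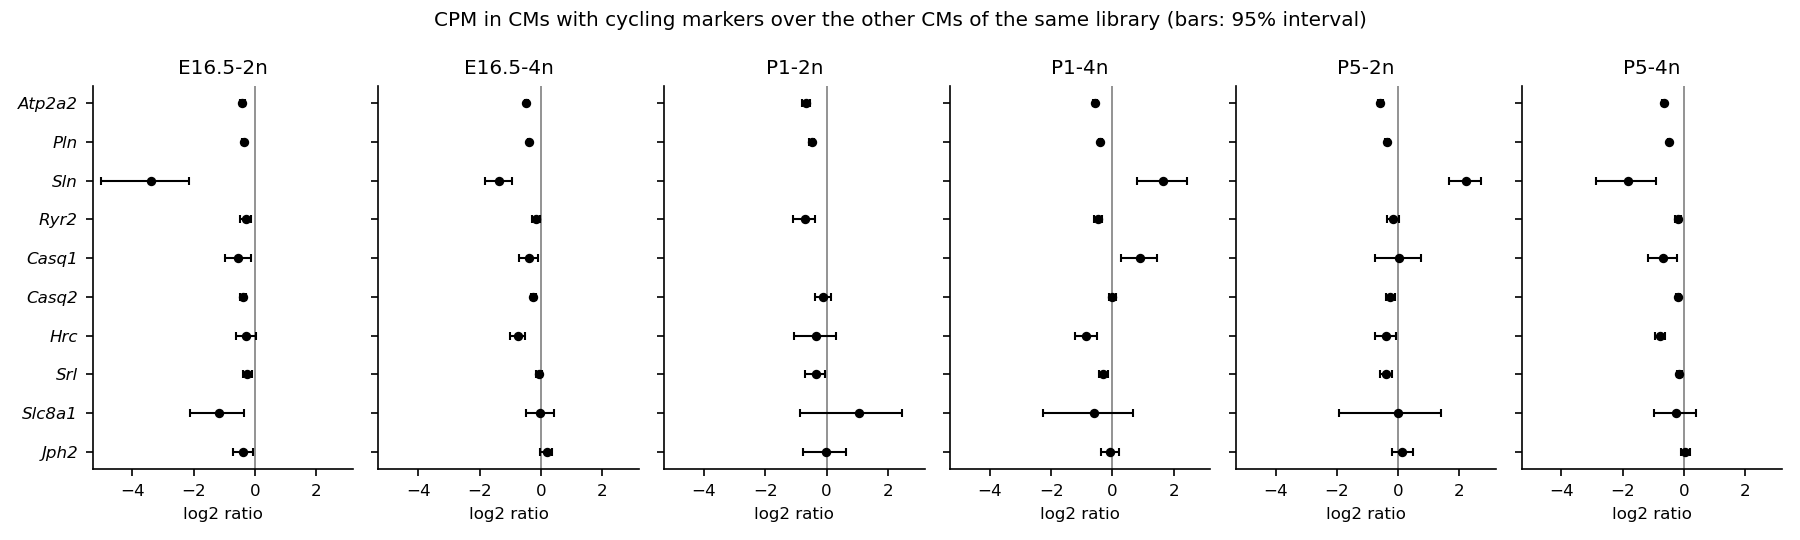
log2 ratio of CPM (x axis) in CMs with 3 or more UMIs of cycling markers over the other CMs of the same library, 1 panel per library, with 95% intervals and without values resting on fewer than 3 UMIs. Atp2a2 and Pln lie left of 0 in all 6 panels, whereas Sln changes side, on 5 to 61 UMIs in the cycling-marker CMs.

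Of 73 other calcium-handling genes in 6 lists, 69 were found and 56 to 59 had 100 or more UMIs in a comparison. At P1 over E16.5, 0 of 56 were 2-fold higher and 9 lower in 2n, and 1 of 59 higher and 10 lower in 4n. Of all genes, 1.98% and 2.88% were higher, and 12.1% and 11.6% lower. The medians of these genes were -0.29 and -0.32, close to those of all genes. At P5 over P1, 2 of 56 were higher and 1 lower in 2n, and 1 of 58 higher and 4 lower in 4n. The shares of all genes were 3.02% and 2.40% higher, and 1.98% and 5.85% lower. At P5 over E16.5, 3 of 57 were higher and 10 lower in 2n, and 3 of 58 higher and 12 lower in 4n. Here 3.03% and 2.48% of all genes were higher, and 16.8% and 21.0% lower. These counts are thus near the shares of all genes. Between sorts 2 of 57 were 2-fold higher in 4n at E16.5 and 2 of 56 at P1 (Atp2b4 and Rcn3 both times), and 0 of 56 at P5. Among all genes, 447 of 9625, 505 of 9653 and 175 of 9349 were 2-fold higher in 4n at these ages.

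The ER lumen list stood lowest, with 6 of 11 genes measured 2-fold lower at P1 in 2n and a median of -1.29, against 12.1% and -0.34 for all genes. These were the calcium-binding chaperones Calr, Hspa5, Hsp90b1 and Pdia4 and the reticulocalbins Rcn1 and Rcn3, and the same 6, of 12 measured, were 2-fold lower in 4n, against 11.6% of all genes. Hspa5 (BiP) had 675, 258 and 218 CPM in 2n and 646, 247 and 234 CPM in 4n, and Calr (calreticulin) had 292, 96.1 and 106 CPM and 262, 105 and 113 CPM. Both were thus lower after birth, while Casq2 stayed within the range above and Hrc and Srl were higher. The 4n over 2n ratio of Rcn3 was 1.15 (0.91 to 1.39) at E16.5 and 2.93 (2.42 to 3.49) at P1. Without CMs holding non-myocyte markers it was lower at 0.46 at E16.5, and still 2.31 at P1. For Hspa5 the ratio at P1 over E16.5 was -1.39 in both sorts with all CMs, and -1.38 and -1.42 without them.

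Among genes that regulate the pump, S100a1, whose product binds SERCA2 and RYR2, had 511, 759 and 933 CPM in 2n and 421, 745 and 882 CPM in 4n, and P5 over E16.5 was log2 0.87 in 2n and 1.07 in 4n. Ppp1r1a, an inhibitor of protein phosphatase 1, was lower at P5 than E16.5 by -1.81 in 2n and -1.46 in 4n. Pde3a, a cAMP phosphodiesterase, was higher at P5 than E16.5 by 1.40 and 1.17. Prkar1a, a regulatory subunit of protein kinase A, varied from 300 to 412 CPM. The plasma membrane pump Atp2b4 had 1.03 to 10.5 CPM, and lower at P5 than at E16.5 by -1.01 (-1.62 to -0.41) in 2n and -2.23 (-2.77 to -1.72) in 4n.

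In the list of genes accessory to SR release, Trdn, encoding triadin, stayed between 386 and 492 CPM while Ryr2 differed more than 2-fold. Calm2, a calmodulin gene, had 443, 220 and 207 CPM in 2n and 806, 274 and 305 CPM in 4n, and was lower at P1 by log2 -1.01 in 2n and -1.56 in 4n. Fkbp1b, whose product binds RYR2, was at 6.29 CPM or less in all libraries, with P1 the lowest age in either sort. Lrrc10, of the same list, was lower at P5, with 52.7 and 42.6 CPM against 120 and 108 CPM at P1. At the surface, Cacna1g, a T-type calcium channel, was higher at P5 than E16.5 by 1.33 in 2n and 1.08 in 4n, from 6.56 and 4.67 CPM. The channel regulator Rrad was lower, with 429 and 310 CPM at E16.5 and 209 to 237 CPM later. Ahnak (87.0 to 126 CPM), Itpr1 (8.15 to 18.2 CPM), Orai1 (8.70 to 12.6 CPM), Letm1 (48.5 to 62.1 CPM) and Smdt1 (418 to 562 CPM), the most abundant of their lists, differed less, with only Itpr1 past 2-fold, at P5-4n over E16.5-4n (-1.15).

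Patterns over the 6 libraries were compared by Pearson's r of log2 (CPM + 1) among 6470 genes, as a description of 6 points that share their libraries. The genes most like Atp2a2 were Ptp4a3 (r = 0.999), 2410015M20Rik, Syngr1, Cox6a2 and Pcp4l1 (r = 0.998 each). Among the members Srl (0.971), Ryr2 (0.960) and Hrc (0.911) followed Atp2a2 most closely and Pln less so (0.748). Nearest to Pln were Ccbl1 (0.994), Rtn2 (0.991), Cnst (0.985), Eci1 (0.982) and Dbp (0.982). Sln was most like Eri1 (0.990), Tsen15 (0.990), Cdc45 (0.989), Mllt11 (0.986) and St6galnac4 (0.986), and with Casq1 it had r = 0.979. The P5-2n value in this Sln pattern rests on few CMs, and r was not computed without them. Without CMs with 10 or more Myl7 UMIs, Sln there was at 1.29 CPM and not 12.7 CPM.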

How the data were processed

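The authors deposited UMI counts that are not normalized, 1 matrix of genes by cells for each library, from Chromium 3′ v2 libraries of methanol-fixed CMs. Per the labels and methods they were made with Cell Ranger and STAR (versions not stated) on GRCm38 with the Ensembl 84 annotation, UMIs being counted strand-specifically over exons and introns. From these counts, UMIs were summed over CMs by library and divided by their total (CPM). Intervals (95%) were exact Poisson for CPM, exact binomial (the UMIs of a pair of libraries as 1 total) for ratios, Clopper-Pearson for shares, and from the 4 counts on the log scale for changes of ratios. A gene counted as 2-fold apart at a log2 ratio of 1 or more in size, with at least 100 UMIs in the 2 libraries. For 4n against 2n, UMI sums of genes with at least 100 UMIs over the 6 libraries were tested with edgeR 4.0.16 in R 4.3.3 (TMM, quasi-likelihood, age as a block of 3 pairs, 2 residual degrees of freedom, Benjamini-Hochberg over all genes). This test was added after the data had been seen. The pairing comes from the methods, as both sorts of an age share litters. For shares and for classing CMs by markers, each CM was thinned to 1000 UMIs (seed 7). This left 0 to 700 shallower CMs per library out of the shares and of the comparisons between classes of CMs in a library. Where classed CMs were left out of a level or ratio, the shallower CMs could not be classed and were kept. Barcodes were taken as called, no doublet caller was run, and the 5% of CMs with the most UMIs were left out as an alternative. Positions came from GENCODE M21 (Ensembl 96), a later release than the files, and promoters from RefSeq.

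The members, lists and comparisons were chosen with earlier results of these data known. Named genes were the 10 members; of the calcium lists, those 2-fold apart in both sorts for an age comparison or in 4n over 2n at 2 or more ages, and the 2 most abundant of each list; for Atp2a2, Pln and Sln the 5 genes outside the lists with the highest r among genes with 1000 or more UMIs; and markers a result turned on. Lists of fibroblast, endothelial, immune, mural and epicardial markers made up the non-myocyte markers. In CMs the fibroblast list ranged from 133 to 947 CPM, the endothelial list from 31.7 to 139 CPM, the immune list from 9.79 to 36.9 CPM, the mural list from 21.6 to 91.8 CPM, the epicardial list from 2.43 to 14.1 CPM, the erythroid list from 1649 to 10332 CPM, the atrial list from 726 to 4968 CPM and the conduction list from 19.7 to 52.9 CPM. A deposited list of symbols and a deposited table of the authors' own comparison (p-values, natural-log fold changes and shares) were not used. Scripts were tested on simulated data. Python 3.11.15, numpy 2.4.6, pandas 2.3.3, scipy 1.17.1 and matplotlib 3.10.9 were used.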

Additional observations from a re-analysis of the deposited data

Results flagged for a closer look

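In 6 cases the differences of a gene went in opposite directions in 2 comparisons of the same kind, with each interval away from 0. The differences between them were not tested. Atp2a2 from P1 to P5 was 0.07 in 2n and -0.04 in 4n on the log2 scale, 0.11 apart. Relative to the median of all genes these were 0.17 and 0.12, of the same sign. Casq2 from E16.5 to P5 was -0.21 in 2n and 0.15 in 4n, a difference of -0.36. Relative to the median of all genes these were 0.24 and 0.65, again of the same sign. For 4n over 2n, Sln was -0.46 at E16.5 and 0.71 at P1, a difference of -1.17, and 0.71 at P1 against -1.19 at P5, a difference of 1.90. Both rest on 43 and 84 Sln UMIs at P1, of which 10 and 38 lay in 2 CMs each. Without cycling-marker CMs the Sln intervals at E16.5 (-0.15, -0.42 to 0.12) and P1 (0.45, -0.12 to 1.04) both held 0. Without CMs with 10 or more Myl7 UMIs the Sln ratio at P5 was 0.29. Srl for 4n over 2n was -0.10 at P1 against 0.05 at P5, a difference of -0.15, and -0.18 at E16.5 against 0.05 at P5, a difference of -0.23.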

How the results depend on the processing

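In the edgeR test of 4n against 2n over the 3 ages, 2 of the 10 genes were called with age as a replicate block, and 0 with no replicate block or without cycling-marker CMs. The block called 1.62% of all genes, and the latter settings called 0. Leaving out 1 age gave 0 (without E16.5) to 3 genes (without P5, also Casq2). The share of all genes called was 0.548% without E16.5 and 12.5% without P5, so these counts moved with those of all genes. With relative log expression scaling, no minimum of UMIs, and without CMs with non-myocyte markers or 10 or more Myl7 UMIs, 2 were called, and no direction changed. In these settings 1.61% to 4.49% of all genes were called. For single conditions no replicate could be left out. The counts of genes 2-fold apart moved by more than 1.5 times in few settings. With a minimum of 500 UMIs, which 8 of the 10 pass in these comparisons, there were 3 genes instead of 5 at P1-2n over E16.5-2n, P1-4n over E16.5-4n and P5-4n over E16.5-4n. At P5-2n over P1-2n and at P5-4n over P5-2n there were 0 instead of 1. The genes lost were Sln and Slc8a1, or Sln alone, which fall under this minimum. At P5-2n over P1-2n there were 2 genes (Casq1 and Sln) with median of ratios, relative to the median of all genes, as a mean over CMs and without the 5% of CMs with the most UMIs. At P5-2n over E16.5-2n there were 5 instead of 3 with median of ratios and relative to the median of all genes. At P5-4n over P5-2n there were 0 without cycling-marker CMs. For these 2-fold counts, shares of all genes are given above only for the main setting and relative to the median. Apart from Sln, log2 ratios at 2-fold or more between libraries kept their direction under every alternative run.

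Added after seeing the data, leaving out CMs with 3 or more Myl7 UMIs turned Sln at P5-2n over P1-2n from 2.28 to -1.20 and at P5-4n over P5-2n from -1.19 to 1.65, and brought 1 gene (Sln, 1.05) past 2-fold at P1-4n over P1-2n. With 10 or more Myl7 UMIs, Sln was at -0.35 at P5-2n over P1-2n and 0.29 at P5-4n over P5-2n. Then 0 of the 10 genes were 2-fold apart in either comparison, against 5.01% and 2.28% of all genes over all CMs. At this limit Sln passed at P5-2n over E16.5-2n (-3.42). With 3 or more, Sln in E16.5-4n was at 2.02 CPM, below P1-4n at 2.40 CPM, whereas E16.5-2n (6.57 CPM) stayed the highest. Casq1 in cycling-marker CMs of P1-2n rests on 1 UMI and turned from -1.66 to 0.34 with 2 or more cycling UMIs. Shares of CMs with a UMI depend on depth: Srl in P5-4n had 29.9% after thinning and 77.3% without.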
